A study of Mus musculus with 60 samples.

Results

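Liver and inguinal white adipose tissue, a subcutaneous fat depot, were compared in obese mice that had received vehicle only. The members are the 20 of 60 bulk RNA sequencing libraries whose titles read Glp1rfl/fl Vehicle or Giprfl/fl Vehicle with Liver or Inguinal White Adipose, 5 libraries in each of 4 groups out of the 12 groups of the study. The titles choose the libraries, and no measured value was used. The study also holds mice labelled Glp1rWnt1-/- and GiprSyn-/- given vehicle, and floxed mice of both genotypes given mGIPR-Ab/P1. Those groups do not enter here.

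All 20 libraries come from mice labelled as diet-induced obese that carry 2 floxed copies of either Glp1r, the gene of the receptor for glucagon-like peptide 1, or Gipr, the gene of the receptor for glucose-dependent insulinotropic polypeptide. No deletion is named in these groups, so the floxed alleles and the vehicle are shared by everything compared. The 10 libraries of Glp1rfl/fl mice are called the Glp1r line and the 10 of Giprfl/fl mice the Gipr line. Age, sex, diet, vehicle and length of treatment were not given in the sources used here. The labels do not say whether a liver and a fat library came from the same mouse, and they number libraries as biological replicates without more detail.

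Hepatocytes make most plasma proteins, assemble lipoproteins, release glucose and ketone bodies, detoxify ammonia as urea and turn cholesterol into bile acids. White adipocytes take up fatty acids set free from circulating lipoproteins, store them as triglyceride in a single large droplet and release them again by lipolysis, and they secrete hormones such as leptin and adiponectin. Both tissues synthesise fatty acids and triglyceride, and both store more lipid in obesity.

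Values are FPKM, the fragments of a gene divided by its transcript length and by the mapped fragments of the library. Estimated depth, in mega-fragments (M), was 49.9 ± 2.96 M in Glp1r line livers against 35.6 ± 2.17 M in their fat, and 47.8 ± 8.43 M against 33.8 ± 3.52 M in the Gipr line (SD, n = 5 each). Transcripts were spread over fewer genes in liver. At 1 FPKM or more the livers held 10630 ± 143 genes in the Glp1r line and 10991 ± 177 in the Gipr line, and the fat 12462 ± 675 and 12958 ± 163. The 100 leading genes held 58.9 ± 1.51% and 55.3 ± 2.08% of summed FPKM in liver and 41.9 ± 4.23% and 38.3 ± 0.438% in fat, and none of these groups overlapped (exact permutation test, two-sided, p = 0.00794, the smallest that 5 against 5 can give, adjusted p = 0.0113 over 10 tests). Each group was deposited in a table of its own line and tissue, so tissue and table cannot be told apart. The labels' protocol names more than 1 homogenizer and RNA precipitation route without saying which tissue had which.

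Some libraries carried transcripts of other tissues. Replicate 1 of the Glp1r line fat had a summed hepatocyte marker level of 449 FPKM where the other 9 fat libraries stood at 5.05 to 28.3 FPKM, and its 12 hepatocyte markers lay at a median of 0.75% of their liver level. Replicate 2 of the Glp1r line fat had 783 FPKM of B cell markers where its 4 companions had 2.07 to 3.73, together with the lowest adipocyte sum, 12840 FPKM, and replicate 2 of the Gipr line fat had 187 FPKM of B cell markers against 7.63 to 21.6. In the Gipr line, liver replicates 2 and 5 had the most exocrine pancreas transcripts, 4505 and 4988 FPKM in summed markers. Replicates 1 and 4 had 160.2 and 427 FPKM, replicate 3 had 13.99 FPKM, and the Glp1r line livers had 14.02 to 22.2 FPKM. Summed mammary and skin epithelium markers in the Gipr line fat were 157, 50 and 97.8 FPKM in replicates 1, 3 and 5. Replicates 2 and 4 had 5.25 and 6.24 FPKM, and the Glp1r line fat 1.28 to 2.67 FPKM. Summed skeletal muscle markers in Gipr line livers 1 to 5 were 82.3, 31.7, 4.29, 0.63 and 125 FPKM. They were 0.249 to 0.793 FPKM in Glp1r line livers, and 515 FPKM in Glp1r line fat replicate 4. Counts were also made without Glp1r line fat replicates 1 and 2, and without Gipr line livers 2 and 5. The part of these transcripts in other results was not tested beyond that.

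The defining markers matched the labels. All 12 hepatocyte markers were higher in liver in both lines and all 12 adipocyte markers were higher in fat, called at an adjusted p under 0.05 with at least a 2-fold difference, in the same direction in each line (limma on log2(FPKM + 1), with Benjamini-Hochberg adjustment over all genes tested). Of 12395 genes tested in both lines, 1348 (10.9%) were called higher in liver and 4271 (34.5%) higher in fat, 5619 in all (45.3%). Without Glp1r line fat replicates 1 and 2, 1336 and 3968 of these calls were made again, and without Gipr line livers 2 and 5, 1324 and 4181. Summed hepatocyte markers reached 55552 to 75885 FPKM in liver, and summed adipocyte markers 12840 to 30806 FPKM in fat against 72.1 to 156 in liver. In bulk tissue, fewer cells of a type and less RNA per cell cannot be told apart.

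**Figure D1:**
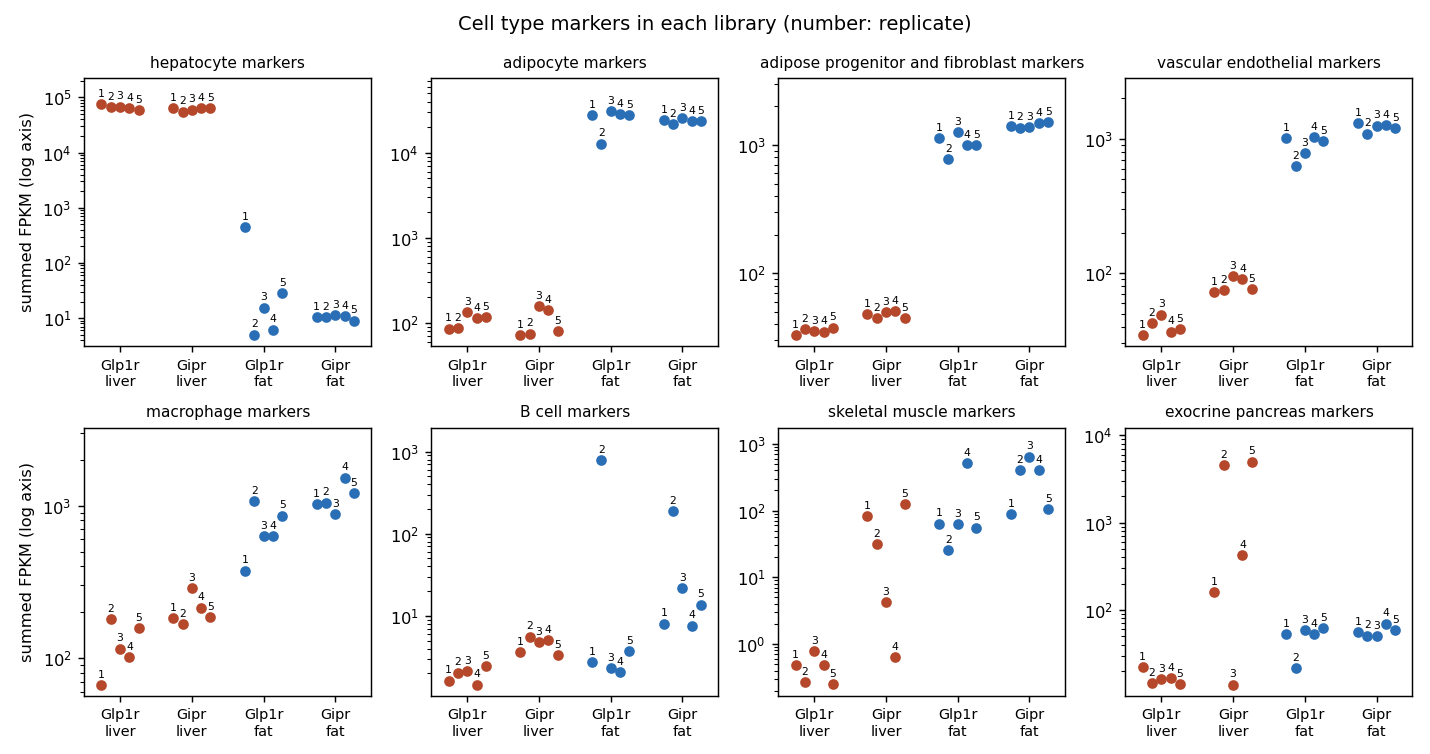
Summed FPKM of cell type marker lists in each of the 20 libraries (log axis, 1 numbered point per library, red for liver and blue for fat). Hepatocyte and adipocyte sums separated the tissues without overlap, and the Glp1r line fat libraries 1 and 2 stood out in the hepatocyte sum (449 FPKM) and the B cell sum (783 FPKM).

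Albumin, the main carrier protein of plasma, and adiponectin, a hormone of adipocytes, mark the ends of the contrast. In the Glp1r line, Alb stood at 39435, 35671, 34511, 31513 and 25589 FPKM in the 5 livers and at 207, 2.77, 7.38, 2.66 and 11.6 FPKM in the 5 fat libraries. Gipr line values were 37995, 26352, 33314, 34747 and 32196 FPKM in liver and 6.31, 6.73, 7.54, 5.3 and 4.16 FPKM in fat. The groups lay far apart in both lines, and the highest fat value was that of Glp1r line replicate 1. The log2 difference of liver minus fat was 11.37 ± 0.94 (SE) in the Glp1r line and 12.21 ± 0.14 in the Gipr line (limma, adjusted p = 5.41e-07 and 2.27e-15).

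Adipoq stood at 2143, 1011, 2719.9, 2447 and 2369.6 FPKM in the Glp1r line fat and at 0.0175, 0, 0.0309, 0 and 0 FPKM in its livers. Its levels in the Gipr line were 1995, 1543, 1964, 1626 and 1867 FPKM in fat and 1.23, 0.929, 0.17, 0.489 and 1.34 FPKM in liver. Glp1r line fat replicate 2 was the lowest fat library and still lay far above every liver. Lep, the gene of leptin, was listed at 0 in all 5 Glp1r line livers and at no more than 0.473 FPKM in the Gipr line livers, against 829.7 to 1724 FPKM in fat.

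The 2 lines gave closely similar tissue differences, with no library in common. Across the 12395 genes, Pearson's r of the log2 differences was 0.985 and Spearman's rho 0.969, given as a description since genes are not independent replicates. The sign was the same for 11866 genes (95.7%) and the median gap between the lines was 0.17 on the log2 scale. Within the lines, 85.1% of 12628 genes in the Glp1r line and 88.3% of 13134 in the Gipr line passed an adjusted p of 0.05 in either direction. With the 2-fold minimum, 1501 (11.9%) were higher in liver and 4722 (37.4%) in fat in the Glp1r line, and 1464 (11.1%) and 5132 (39.1%) in the Gipr line. Liver and fat libraries did not overlap in either line for 8963 genes (72.3%).

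By FPKM, fewer genes were higher in liver, and their differences were larger. In both lines 308 genes were at least 32-fold higher in liver against 111 in fat, and 63 against 10 passed 256-fold, as fitted on the log2(FPKM + 1) scale. At a 4-fold minimum the order was the other way, with 817 genes higher in liver and 1517 in fat. The balance depended on the scaling between libraries. The median gene was lower in liver by FPKM, at -0.74 and -0.73 on the log2 scale, and scaling by the median of ratios shifted it by 0.78 and 0.83 and split the calls into 2286 for liver and 1987 for fat. Quantile normalization (shift 0.63 and 0.64) gave 1861 and 2227, a common sum without the 100 leading genes (shift 0.24 and 0.20) gave 1501 and 3376, and a common sum over all genes (shift -0.32 and -0.33) gave 1249 and 6001. Under all 5 scalings 1243 genes (10%) were called for liver and 1878 (15.2%) for fat, and only these are described as holding under every scaling. Counts over lists are to be read beside these shares and the 10.9% and 34.5% called by FPKM.

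**Figure D2:**
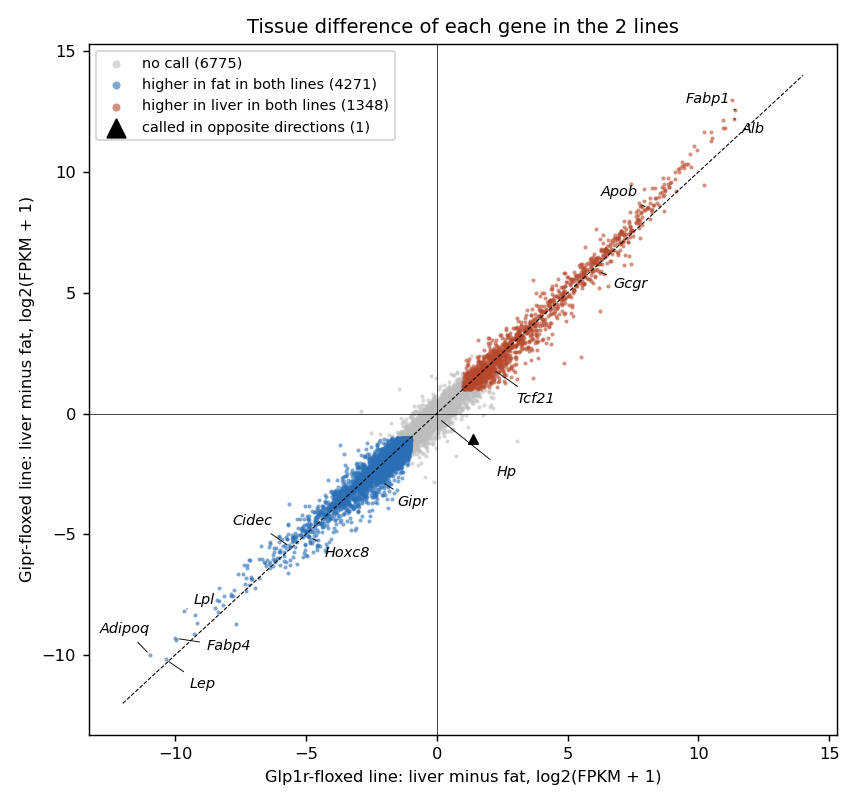
Log2 difference of liver minus fat in the Glp1r line (horizontal) against the Gipr line (vertical) for the 12395 genes tested, 1 point per gene, red where higher in liver, blue where higher in fat, and a triangle for the gene called in opposite directions. Points follow the diagonal (r = 0.985) with 1348 genes called higher in liver and 4271 in fat.

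The 15 genes with the largest liver excess were plasma proteins, apolipoproteins, major urinary proteins and metabolic enzymes. Among them were Fabp1, Alb, Apoa2, Apoa1, Ttr, Mup20, Ahsg, Gc, Serpina1c, Mup3, Serpina1b, Bhmt, Apoc3 and Ambp. Fabp1, the fatty acid binding protein of hepatocytes, averaged 9410.4 ± 790.1 and 8234 ± 793 FPKM in the livers of the Glp1r and Gipr lines, against 8.72 ± 17.3 and 0.434 ± 0.613 FPKM in fat (SD, n = 5). Most of its mean in the Glp1r line fat came from replicate 1, which carried the hepatocyte transcripts. The major urinary proteins and the Serpina1 genes are families of near-identical copies, so the split of reads between their members is uncertain.

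The 15 with the largest fat excess combined adipocyte hormones, storage and membrane proteins. They were Lep, Adipoq, Sncg, Fabp4, Retn, Cav1, Plin1, Aoc3, Lpl, Nnat, Mest, Slc1a5, Tuba1a, Retnla and Apol6. Fabp4, the fatty acid binding protein of adipocytes, averaged 16333 ± 4865 and 16211 ± 706 FPKM in fat and 14.4 ± 2.58 and 25 ± 5.25 FPKM in liver. Mest, an imprinted gene tied to fat cell enlargement, averaged 446 ± 108 and 512 ± 75.3 FPKM in fat. Slc1a5, a transporter of glutamine and other neutral amino acids, averaged 576 ± 143 and 501 ± 59.2 FPKM in fat and 0.769 and 1.29 FPKM in liver.

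Secreted proteins divided by tissue with few exceptions. All 15 tested genes of lipoprotein assembly were called for liver under every scaling, with a median log2 difference of 8.08 and 8.49 beside -0.74 and -0.73 over all genes. Apob, the structural protein of very low density lipoprotein, stood at 319, 329, 348, 338 and 365 FPKM in Glp1r line livers and at 1.79, 0.0022, 0.0208, 0.0024 and 0.0906 FPKM in their fat (named after its values were seen). In the Gipr line it stood at 358, 334, 408, 381 and 329 FPKM and at 0.0196, 0.0067, 0, 0.0025 and 0.006 FPKM. The lowest liver exceeded the highest fat library many times over, and that fat library was again Glp1r line replicate 1. Apoe, which many cell types make, was also higher in liver, at 19368 and 12393 FPKM against 1666 and 867 FPKM in fat.

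Of 22 coagulation genes, 17 were called for liver and 4 for fat, all 21 under every scaling (medians 6.18 and 6.44). Those higher in fat are known as products of other cells. F13a1, factor XIII subunit A of macrophages and megakaryocytes, had log2 differences of -4.25 and -5.64, against 5.85 and 6.38 for F13b, the subunit made by hepatocytes. The others were the genes of tissue factor, thrombomodulin and von Willebrand factor, with -2.31 and -2.84 for F3, and -2.76 and -2.94 for Thbd, and -2.70 and -2.60 for Vwf. Of 22 complement genes 12 were called for liver and 4 for fat, 11 and 1 under every scaling. Cfd, the adipocyte protease adipsin that activates the alternative pathway, averaged 668 and 415 FPKM in fat and 10.9 and 4.85 in liver, whereas C3, on which that pathway acts, averaged 898 and 1082 FPKM in liver and 146 and 148 in fat.

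All 17 tested hepatokines, hormones secreted by hepatocytes, were called for liver, 16 of them under every scaling (Orm1 was the exception), and 11 of 16 adipokines were called for fat and 3 for liver. The 3 were Agt (angiotensinogen), Rbp4 (retinol binding protein) and Igf1 (insulin-like growth factor 1), which are also products of hepatocytes. Rbp4 averaged 2390.0 and 2278 FPKM in liver and 265 and 166 in fat. Fgf21, a fasting and stress hormone, was singled out after its values were seen and stood at 10.3, 5.35, 7.19, 7.94 and 9.06 FPKM in Glp1r line livers and 2.04, 3.2, 4.88, 4.97 and 3.51 FPKM in Gipr line livers. In fat it stood at 0.688, 0.378, 0.67, 1.35 and 1.1 FPKM in the Glp1r line and 1.36, 0.585, 1.39, 0.906 and 1.64 FPKM in the Gipr line. The call for liver passed in both lines (adjusted p = 3.68e-07 and 0.00018, limma) with log2 differences of 2.29 and 1.10.

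Transcripts of some abundant secreted proteins stood at similar levels in both tissues. A 95% interval of the difference inside 2-fold either way was met in both lines by 3732 of 12395 genes (30.1%). The highest of these by mean level were Hp, Eef1a1, Fth1, H2-K1, Atp5b, Tpt1, Rarres2, Gstz1, Ldha and Hspa8. Hp, the gene of haptoglobin that binds free haemoglobin, stood at 2233, 2893, 2085, 2501 and 5464 FPKM in Glp1r line livers and at 2427, 1339.8, 3497, 2952 and 4236 FPKM in their fat. Gipr line values were 1741, 1945, 3157, 2653 and 2339.8 FPKM in liver and 2407, 1967, 2488, 3907 and 2892 FPKM in fat. The groups overlapped in both lines, and the 95% intervals of the log2 difference were -0.72 to 0.87 and -0.66 to 0.26. Rarres2, the gene of the chemoattractant chemerin, had intervals of -0.06 to 0.80 and 0.21 to 0.78 around means of 596 and 602 FPKM in liver and 477 and 429.5 FPKM in fat. These intervals hold for FPKM, and scaling by the median of ratios would move them up with all genes.

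**Figure D3:**
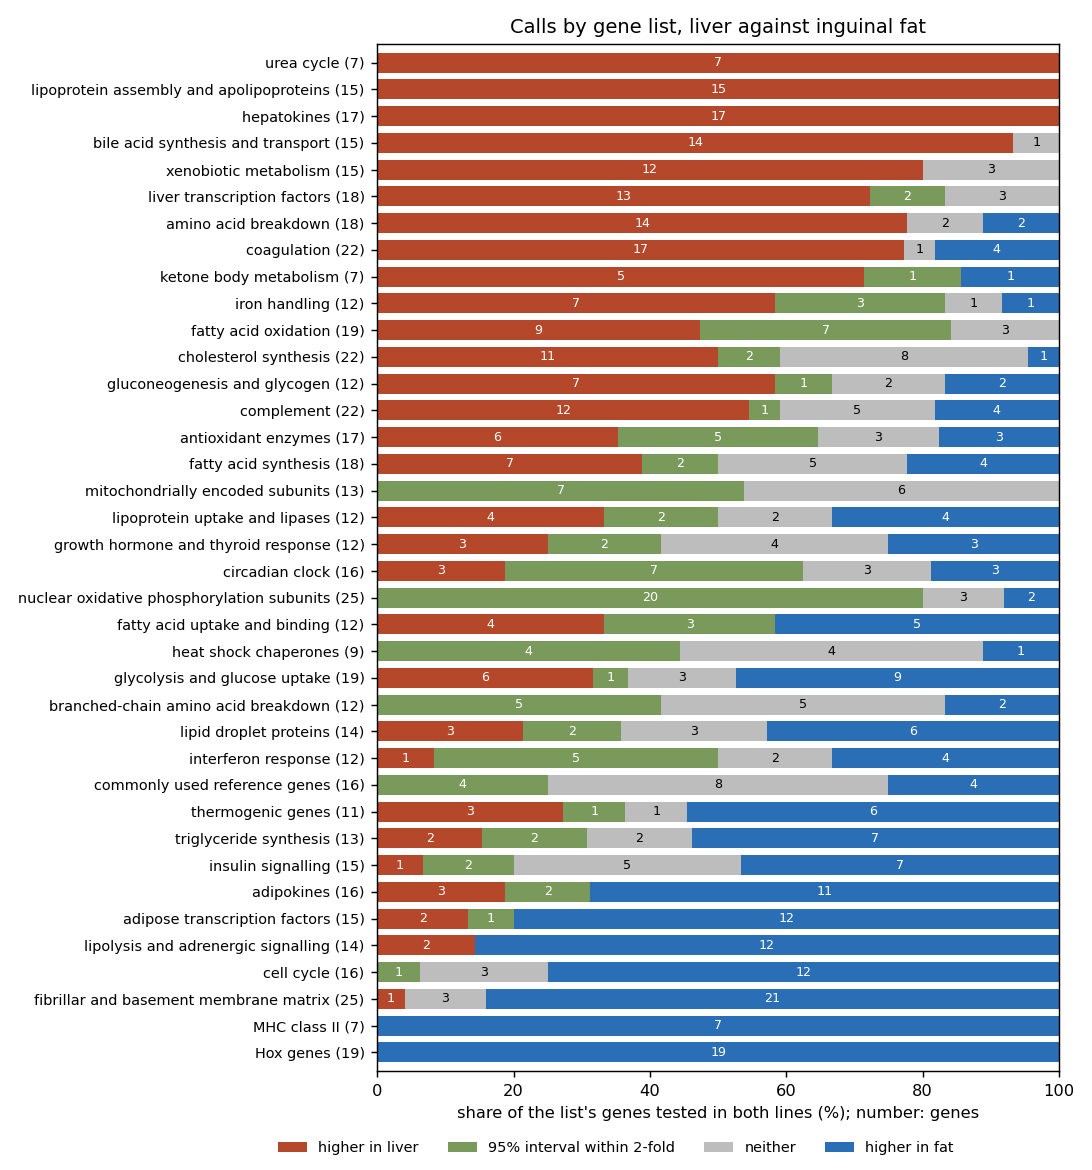
Stacked bars give, for each list, the share of its tested genes in percent that was higher in liver, within 2-fold, neither, or higher in fat in both lines, with the number of genes in each piece. Lipoprotein assembly (15 of 15), coagulation (17 of 22) and the urea cycle (7 of 7) lay on the liver side, and the matrix list (21 of 25) and Hox genes (19 of 19) on the fat side.

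Several genes of lipid uptake from the circulation differed in transcript level between the tissues. Lpl, lipoprotein lipase, which frees fatty acids from circulating triglyceride, stood at 3783, 1711, 4077, 3744 and 3539 FPKM in the Glp1r line fat and at 1.804, 4.24, 2.68, 2.42 and 4.18 FPKM in the livers. Its levels in the Gipr line were 2847, 3007, 2848, 2548 and 2547 FPKM in fat and 8.67, 5.71, 14.3, 7.14 and 9.03 FPKM in liver. No liver came near any fat library. Gpihbp1, which carries the lipase across capillary endothelium, differed in the same direction, by -3.97 and -3.27 on the log2 scale, and Cd36, a fatty acid translocase, by -4.64 and -4.60. Lipc, hepatic lipase, was higher in liver (5.58 and 5.82). Angptl4, a circulating lipase inhibitor, was higher in fat, and Lrp1 and Scarb1 had intervals within 2-fold.

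Over the uptake and lipase list 4 of 12 tested genes were called for liver and 4 for fat, all under every scaling. Over the list of fatty acid uptake and binding the calls were 4 and 5 of 12, of which 4 and 4 held under every scaling. Beside them stand 10.9% and 34.5% of all genes by FPKM. The medians of both lists changed sign with the scaling (0.17 and 0.59 by FPKM against -0.12 in the Glp1r line by common sum for the first, and -0.12 and 0.14 against -0.40 and -0.13 for the second). The fatty acid transport proteins parted by member. Slc27a2 and Slc27a5 were higher in liver, Slc27a1 in fat (-5.36 and -4.36), and Slc27a4 was within 2-fold. Acsl1, which activates long-chain fatty acids, was higher in fat by FPKM (-1.81 and -1.12) but not under every scaling.

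Fatty acid synthesis did not belong to either tissue as a whole. Of 18 genes 7 were called for liver and 4 for fat, 6 and 1 under every scaling, and the median (0.05 and 0.53 by FPKM) fell below 0 in the Glp1r line by common sum (-0.24). Acly, which makes cytosolic acetyl-CoA, had a mean of 69.1 and 92.3 FPKM in liver and 69 and 69.6 in fat, with the interval within 2-fold. Fasn, fatty acid synthase, stood at 47.7, 123, 67.4, 74 and 73.6 FPKM in Glp1r line livers and 361, 246, 445, 429 and 393 FPKM in fat. In the Gipr line it stood at 99.8, 71.5, 142, 69.9 and 30 FPKM in liver and 248, 169.5, 245, 119 and 167 FPKM in fat. The tissues were apart in the Glp1r line and overlapped in the Gipr line. It was called for fat by FPKM (-2.30 and -1.30) but not under every scaling.

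The desaturases that follow synthesis differed by member. Scd1, the main stearoyl-CoA desaturase, stood at 1798, 3167, 2912, 1507 and 1745 FPKM in Glp1r line livers and 4385, 2230.0, 5225, 4968 and 3882 FPKM in fat. For the Gipr line the values were 1300.2, 1313, 3747, 2535 and 706 FPKM in liver and 3553, 5153, 4954, 4948 and 4358 FPKM in fat. The tissues overlapped in both lines. It passed the test in both lines (adjusted p = 0.0177 and 0.00237, limma) but stayed under 2-fold in the Glp1r line (-0.90 and -1.48) and was not called. Scd2 was low in liver, at 0.879 and 1.92 FPKM against 141 and 138 FPKM in fat. Fads1 and Fads2, which desaturate polyunsaturated fatty acids, were higher in liver (4.92 and 3.84 for Fads1, and 6.39 and 5.77 for Fads2), as were the elongases Elovl3, Elovl5 and Elovl6.

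In cholesterol synthesis 11 of 22 genes were called for liver and 1, Pmvk, for fat (medians 1.16 and 1.05), with 10 for liver under every scaling. Stard4, a carrier of cholesterol within cells, was called for liver (2.27 and 2.21), and Srebf2, the transcription factor that drives the pathway, had intervals within 2-fold (-0.01 and -0.21). Without Gipr line livers 2 and 5 the counts were 10 and 3.

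Transcript levels of some genes of triglyceride assembly and storage differed between the tissues. Of 13 synthesis genes 2 were called for liver, Gpam and Lpin2, and 7 for fat, with 2 and 4 under every scaling (medians -1.28 and -1.63). Dgat2, which adds the last fatty acid, was higher in fat, at 1153 and 969 FPKM against 213 and 232 in liver, although it was abundant in both, and so was Dgat1 (-3.31 and -2.98). Lipid droplet proteins split 3 for liver (Cideb, Fitm1 and Hsd17b13) and 6 for fat among 14, beside 10.9% and 34.5% of all genes. Under every scaling 3 and 5 held, while the list's median changed sign under the median of ratios (from -0.78 and -0.41 to 0.09 and 0.47). Plin2, a droplet coat protein of many cells, was within 2-fold (358 and 492 FPKM in liver and 433 and 472 in fat), while Plin1, the adipocyte coat protein, was at most 0.676 FPKM in any liver and 351 to 739 FPKM in fat.

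Cidec, which fuses lipid droplets in adipocytes, was also present in these livers. It stood at 29.7, 32.5, 55.4, 50.5 and 54.9 FPKM in Glp1r line livers and at 2434, 1156, 2497, 2610.5 and 2519 FPKM in their fat. Gipr line values were 19.5, 16.6, 72.5, 61.3 and 13.8 FPKM in liver and 1504, 963, 1987, 1036 and 1640.2 FPKM in fat. It was called for fat in both lines, and its liver level was 13.8 FPKM or more in every library. Adipoq, a marker of adipocytes in the sample, stood at 1.23, 0.929, 0.17, 0.489 and 1.34 FPKM in the same 5 Gipr line livers. Replicate 3 had the most Cidec and the least Adipoq of these 5 livers. Which cells gave the Cidec in liver was not tested. Cideb, the counterpart of Cidec in hepatocytes, stood at 188 to 237 FPKM in liver and 0.101 to 0.881 FPKM in fat.

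Of 14 tested genes of lipolysis and adrenergic signalling 12 were called for fat and 2 for liver, 8 and 2 under every scaling (medians -2.77 and -2.30). The lipases Pnpla2 and Lipe, which start the breakdown of stored triglyceride, differed on the log2 scale by -4.04 and -3.82 for Pnpla2, and -6.03 and -5.31 for Lipe, and the beta 3 adrenergic receptor Adrb3 by -3.44 and -2.25. The 2 higher in liver were Adra1b, an alpha 1 receptor, and Aqp9, the glycerol channel of hepatocytes, whereas Aqp7, the glycerol channel of adipocytes, was higher in fat (6.53 and 6.71 for Aqp9, and -6.25 and -6.02 for Aqp7).

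Pnpla3, a lipase of the droplet surface, was higher in fat in both lines. It stood at 0.207, 0.841, 0.941, 0.585 and 0.927 FPKM in Glp1r line livers and at 196, 127, 216, 225 and 181 FPKM in fat. Its levels in the Gipr line were 0.65, 0.335, 4.06, 0.76 and 0.299 FPKM in liver and 160.4, 110.2, 149, 96.4 and 108 FPKM in fat. Its highest liver, Gipr line replicate 3, was also the liver with the most Cidec.

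In fatty acid oxidation 9 of 19 genes were called for liver, 8 under every scaling, none for fat, and 7 were within 2-fold (8 and 1 called without Glp1r line fat libraries 1 and 2). Those called included the regulator Ppara, the transport step Cpt1a (1.8 and 1.62) and the peroxisomal and microsomal genes Ehhadh, Acaa1b, Cyp4a10 and Cyp4a14. The mitochondrial genes Hadha, Hadh, Acadm, Acadl, Cpt2 and Slc25a20 were within 2-fold. Cyp4a14, an omega hydroxylase, averaged 278 and 209 FPKM in liver and 0.463 and 0.00248 in fat.

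Ketone bodies are made in liver and burnt elsewhere. Oxct1, the enzyme that commits ketone bodies to oxidation, stood at 0.571 to 0.944 and 1.36 to 2.11 FPKM in the livers of the Glp1r and Gipr lines and at 69.5 to 129.9 and 86.4 to 116 FPKM in fat. The tissues did not overlap in either line.

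Genes of glucose entry and phosphorylation differed between the tissues. Hk2, the insulin-responsive hexokinase of fat and muscle, stood in fat at 26.5, 16.3, 27.2, 24.8 and 24.4 FPKM in the Glp1r line and 24.7, 20.7, 18.9, 21.6 and 20 FPKM in the Gipr line, against at most 2.41 FPKM in liver. Slc2a2 and Slc2a4, the glucose transporters of liver and of insulin-sensitive tissues, were called for liver and for fat (6.05 and 6.38 for Slc2a2, and -4.96 and -4.26 for Slc2a4). Of 19 glycolysis genes 6 were called for liver and 9 for fat, 6 and 7 under every scaling, with a median (-0.80 and -0.70) that rose above 0 in the Gipr line under the median of ratios (0.12).

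Of 12 tested genes of gluconeogenesis and glycogen 7 were called for liver and 2 for fat, all 9 under every scaling. G6pc and Fbp1, enzymes of glucose production, differed by 5.50 and 6.19 for G6pc, and 8.68 and 9.03 for Fbp1. Pck1, which makes phosphoenolpyruvate for gluconeogenesis in liver and for glyceride glycerol in fat, was not called (singled out after its values were seen). It stood at 539, 843, 620.2, 932 and 629 FPKM in Glp1r line livers and 332, 176, 264, 239.9 and 216 FPKM in fat. For the Gipr line the values were 394, 562, 425, 479 and 285 FPKM in liver and 249, 173, 466, 185 and 256 FPKM in fat. The tissues were apart in the Glp1r line and overlapped in the Gipr line, with log2 differences of 1.53 ± 0.20 and 0.75 ± 0.26 (SE).

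Many of these steps are run by pairs of related genes, and 27 such pairs were set side by side as the first member's share of their summed FPKM. In 13 pairs the leading member switched between the tissues by mean share. The margin was small in some, as for Gys2, with 41.4% and 45.2% of Gys2 plus Gys1 in fat. Dio1 and Dio2 each averaged under 1 FPKM in fat. In 12 pairs the first member was called for liver and the second for fat. Slc2a2 made up 99.3% and 98.7% of Slc2a2 plus Slc2a4 in liver and 0.183% and 0.0755% in fat. These shares compare genes per length and do not depend on scaling between libraries.

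Pyruvate kinase (Pklr against Pkm), the fatty acid binding proteins (Fabp1 against Fabp4), the glycerol channels (Aqp9 against Aqp7) and methionine adenosyltransferase (Mat1a against Mat2a) switched as well. Pklr made up 95.2% and 90.7% of its pair in liver and 0.0979% and 0% in fat, and Mat1a 97.7% and 97.5% in liver and 1.36% and 0.00365% in fat. In Glp1r line fat the highest library, at 0.465% for Pklr and 6.69% for Mat1a, made up most of these means. Some other pairs kept their leader. Scd1 was 99.96% of Scd1 plus Scd2 in Glp1r line liver and still 96.6% in fat, and Cpt1a was 99.6% of Cpt1a plus Cpt1b in liver and 94.7% in fat. In 4 pairs the member listed first was itself called for fat: Pfkl, Pnpla3, Mogat2 and Dgat2.

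**Figure D4:**
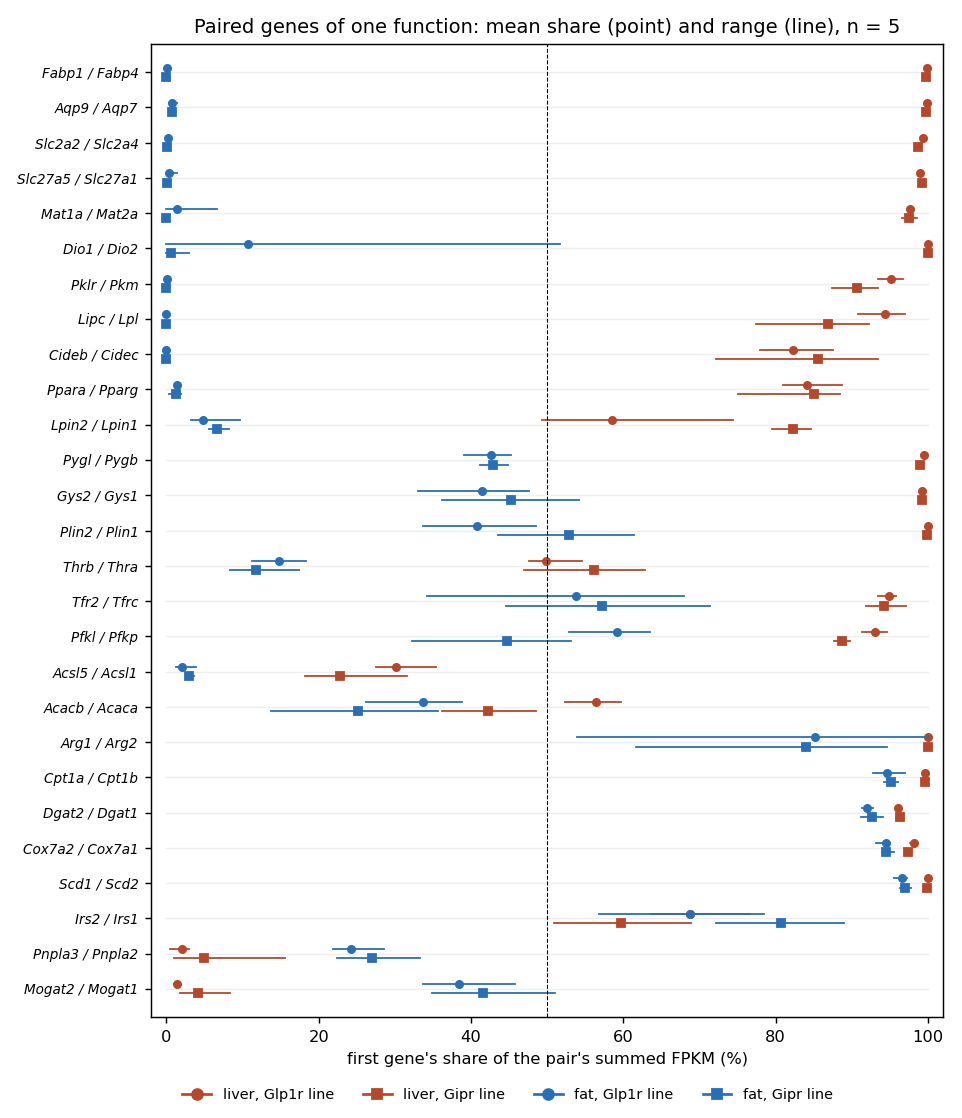
Share of the first gene in the summed FPKM of each of 27 pairs, in percent, as the mean (point) and range (line) of 5 libraries for liver and fat of both lines. In 13 pairs the mean share crossed the dashed line at 50% in both lines, as for Slc2a2 and Slc2a4 (99.3% in Glp1r line liver and 0.183% in its fat).

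Most genes of nitrogen disposal, bile acids and detoxification were higher in liver. All 7 tested urea cycle genes were called for liver under every scaling (medians 6.93 and 6.66). Cps1, the first enzyme of the cycle, stood at 440.1, 364, 426, 439.7 and 351 FPKM in Glp1r line livers and 553, 573, 372, 374 and 366 FPKM in Gipr line livers, with 0 to 4.998 and 0 to 0.0501 FPKM in fat. The highest fat library was Glp1r line replicate 1. Of 18 amino acid breakdown genes 14 were called for liver and 2, Mat2a among them, for fat.

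Branched-chain amino acid breakdown had 5 of 12 genes called for liver by the median of ratios. By FPKM 0 were called for liver and 2 for fat, beside 10.9% and 34.5% of all genes. Bcat2, which takes off the amino group first, and Bckdk, the kinase that turns the next enzyme off, were called for fat (-2.21 and -2.05 for Bcat2, and -2.19 and -1.92 for Bckdk), and 5 were within 2-fold. The list's median was -0.34 and 0.05 by FPKM, and it changed sign between scalings (-0.64 and -0.24 by common sum, 0.57 and 1.01 by the median of ratios). Of 15 bile acid genes 14 were called for liver under every scaling, with Klb, a co-receptor of fibroblast growth factors that fat also uses, not called (-1.08 and -0.59). Cyp7a1, the rate-limiting enzyme of bile acid synthesis, averaged 12 ± 7.02 and 16.8 ± 5.95 FPKM in liver and 0.0314 and 0 in fat. Xenobiotic metabolism had 12 of 15 called for liver.

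Hormone receptors bear on the study, which concerns incretins. Gcgr, the glucagon receptor, stood at 105, 102.22, 108, 116 and 109.5 FPKM in Glp1r line livers and 94.4, 101.95, 105, 109 and 133 FPKM in Gipr line livers. In fat it stood at 1.44, 0.184, 0.281, 0.587 and 0.387 FPKM in the Glp1r line and 1.17, 0.521, 1.202, 0.88 and 0.542 FPKM in the Gipr line. The groups were separate and the call for liver held under every scaling (6.16 and 5.89).

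Gipr was detected at a low level in fat and hardly at all in liver. It stood at 4.02, 2.16, 2.25, 4.44 and 4.24 FPKM in the Glp1r line fat and 7.13, 5.02, 6.03, 7.46 and 5.12 FPKM in the Gipr line fat, whose Gipr alleles are floxed, against at most 0.0073 FPKM in liver. It was called for fat (-2.10 ± 0.16 and -2.82 ± 0.10, SE), but not under every scaling. Glp1r reached at most 0.131 FPKM in liver and 0.0309 FPKM in fat in any library and was not tested. Of the 8 genes in the receptor list 4 could be tested, and Vipr1 and Dpp4, the protease that cleaves incretins, were higher in liver (2.06 and 2.40 for Vipr1, and 2.58 and 1.62 for Dpp4).

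**Figure D5:**
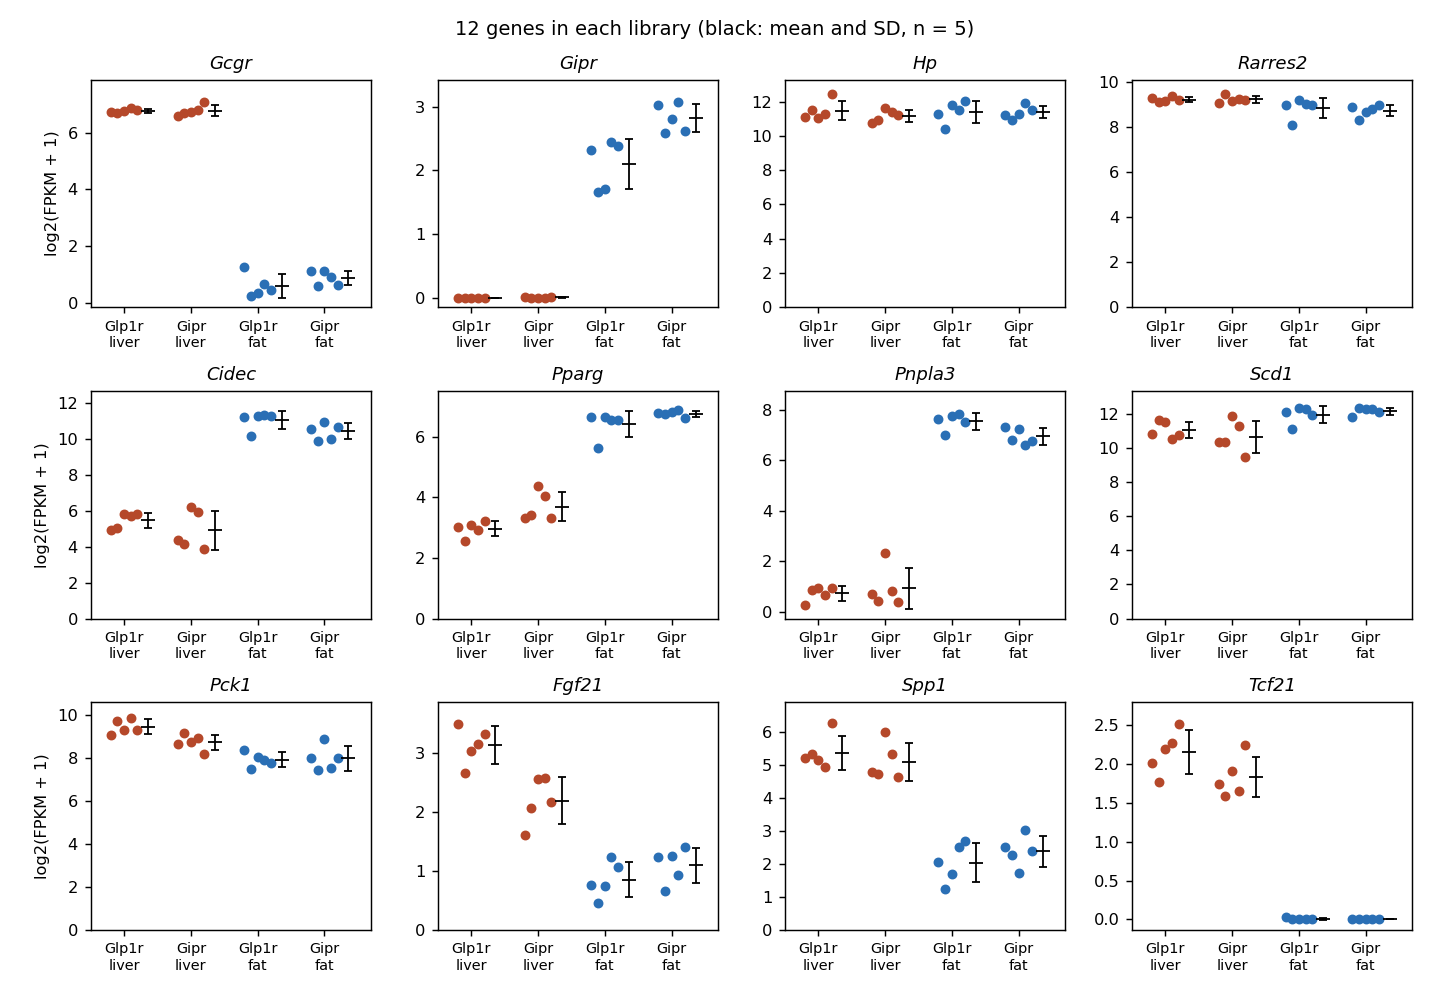
log2(FPKM + 1) of 12 genes in each library, 5 points per tissue and line, with the mean and SD in black. Gcgr lay at 94 to 133 FPKM in liver and below 1.5 FPKM in fat, Gipr at 2.16 to 7.46 FPKM in fat, and Hp overlapped between the tissues.

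Of 15 insulin signalling genes 1 was called for liver and 7 for fat by FPKM, beside 10.9% and 34.5% of all genes. Under every scaling 0 and 2 held, beside 10% and 15.2% of all genes, and 2 were within 2-fold by FPKM. Insr, the insulin receptor, was within 2-fold (13.6 and 15.4 FPKM in liver and 12.99 and 10.9 in fat). Grb10 and Pdk4 were higher in fat under every scaling. Among growth hormone and thyroid genes Prlr, the prolactin receptor, and Dio1, which activates thyroid hormone, were higher in liver, and Thra, a thyroid hormone receptor, in fat. That list's median lay near 0 by FPKM (-0.10 and -0.22) and turned positive under the median of ratios (0.72 and 0.71).

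Transcription factors followed tissue identity, apart from a shared set. Of 18 tested liver factors 13 were called for liver under every scaling. Hnf4a, a nuclear receptor that defines hepatocytes, stood at 117, 110.0, 107, 133 and 104 FPKM in Glp1r line livers and 97.9, 112, 95.5, 109 and 99.6 FPKM in Gipr line livers, and at most at 1.12 FPKM in fat. Pparg, the nuclear receptor of fat cell formation, stood at 101, 49, 99.9, 92.4 and 93.4 FPKM in Glp1r line fat and 109, 106, 112, 116 and 97 FPKM in Gipr line fat, and still at 4.91 to 19.7 FPKM in liver. Ppara, which drives fatty acid oxidation, stood at 33.6 to 40.7 FPKM in Glp1r line livers and 59.3 to 92.1 FPKM in Gipr line livers and at 0.424 to 1.87 FPKM in fat. Cebpa and Nr1h3, used by both cell types, were within 2-fold.

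Of 15 tested adipose factors 12 were called for fat, 11 under every scaling, among them Ebf1, Zfp423 and Tbx15. Tcf21, a factor known from visceral and other mesenchymal cells, was instead found in liver. It stood at 3.05, 2.4, 3.56, 3.84 and 4.72 FPKM in Glp1r line livers and 2.36, 2.01, 2.77, 2.16 and 3.74 FPKM in Gipr line livers and at no more than 0.0235 FPKM in inguinal fat. All 19 tested of 25 listed Hox genes, which record position along the body axis, were higher in fat, 13 of them under every scaling (medians -2.21 and -2.28). A gene near 0 in liver passes the filter of 1 FPKM only through the fat libraries. The direction of such genes was fixed by that filter, so the count of 19 is a description and no test. Hoxc8 stood in fat at 39.3, 18.6, 36.5, 27.7 and 26.5 FPKM in the Glp1r line and 31.9, 37.1, 35.5, 31.1 and 34.3 FPKM in the Gipr line and at no more than 0.0111 FPKM in liver. Without Glp1r line fat libraries 1 and 2, 18 of the 19 were called.

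The promoters of 5 genes on either side of the contrast are shown because they hold letters read by liver or fat factors, and they were chosen after their matches were seen. They are the 250 bases before the annotated start, 5′ to 3′ on the gene's strand, from RefSeq with build GRCm38.p6, with matched motif letters in capitals: Gc at chr5:89457899-89458148 (minus strand), Hc at chr2:35061413-35061662 (minus), Fabp1 at chr6:71199629-71199878 (plus), Alb at chr5:90460620-90460869 (plus) and Lep at chr6:29059971-29060220 (plus). Capitals mark the HNF1 letters in Gc and Hc (GTTAAT, any base, then ATT, on either strand), the direct repeat of nuclear receptors such as HNF4 in Fabp1 (GGNCA, any base, then AGGNCA, on either strand), and the C/EBP letters TTGCNNAA, on either strand, in Alb and Lep.
Gc: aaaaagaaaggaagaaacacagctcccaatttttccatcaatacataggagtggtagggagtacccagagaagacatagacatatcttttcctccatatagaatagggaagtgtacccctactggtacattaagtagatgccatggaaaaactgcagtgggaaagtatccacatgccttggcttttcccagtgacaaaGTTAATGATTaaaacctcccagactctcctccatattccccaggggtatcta
Hc: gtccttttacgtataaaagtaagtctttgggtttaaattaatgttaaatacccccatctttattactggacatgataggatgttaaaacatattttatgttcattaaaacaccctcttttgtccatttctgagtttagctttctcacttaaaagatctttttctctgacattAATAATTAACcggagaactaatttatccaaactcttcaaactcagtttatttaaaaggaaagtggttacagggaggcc
Fabp1: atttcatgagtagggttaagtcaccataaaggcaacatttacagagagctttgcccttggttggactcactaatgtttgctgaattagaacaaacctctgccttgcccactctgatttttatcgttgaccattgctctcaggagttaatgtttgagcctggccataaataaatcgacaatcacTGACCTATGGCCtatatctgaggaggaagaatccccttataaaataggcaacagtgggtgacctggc
Alb: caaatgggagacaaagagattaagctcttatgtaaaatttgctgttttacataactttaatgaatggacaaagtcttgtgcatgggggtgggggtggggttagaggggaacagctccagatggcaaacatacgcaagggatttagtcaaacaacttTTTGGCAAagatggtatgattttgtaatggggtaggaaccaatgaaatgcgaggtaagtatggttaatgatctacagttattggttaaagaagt
Lep: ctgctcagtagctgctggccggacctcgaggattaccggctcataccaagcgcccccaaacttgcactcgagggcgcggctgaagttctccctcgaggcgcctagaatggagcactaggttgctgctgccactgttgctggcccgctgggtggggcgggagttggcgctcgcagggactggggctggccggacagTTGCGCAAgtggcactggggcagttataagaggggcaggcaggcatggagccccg

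The letters began 52 bases before the start in Gc, 78 in Hc, 67 in Fabp1, 94 in Alb and 55 in Lep. Promoters could be matched by symbol for 1010 of the 1348 genes called for liver and 3260 of the 4271 called for fat, 74.9% and 76.3%, so the shares describe the matched genes only and are void as a check of the whole set. HNF1 letters stood in 27 liver promoters (2.67%), in 0 fat promoters in 0.411% of all 27025 promoters of that length and in 0.323% of the 9595 of genes tested. The direct repeat letters stood in 25 (2.48%), 26 (0.798%), 0.67% and 0.782%. C/EBP letters stood in 128 (12.7%), 256 (7.85%), 9.55% and 7.83%, and the FOXA letters TGTTTAC in 43 (4.26%), 73 (2.24%), 3.09% and 2.28%. The HNF4 letters CAAAGTCCA, which can overlap the direct repeat, stood in 13 (1.29%), 11 (0.337%), 0.381% and 0.396%, and TATAAA in 124 (12.3%), 237 (7.27%), 13% and 6.77%, all on either strand. A match of letters is a description and not evidence of binding.

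Cells other than hepatocytes and adipocytes left separate traces. All 8 vascular endothelial markers were higher in fat (7 under every scaling), and 4 of 7 sinusoidal markers, Stab2, Clec4g, Oit3 and Gata4, were higher in liver under every scaling, while Lyve1 and Stab1 were called for fat by FPKM. Of 6 tested Kupffer cell markers 3 were called for liver (Clec4f, Vsig4 and Cd5l) and 1 for fat (Folr2), all under every scaling. Their summed level was 74.2 to 169.7 FPKM in Glp1r line livers and 34.5 to 201 FPKM in that line's fat, where replicate 2 was above every liver, and 142 to 218 and 84.6 to 140.3 FPKM in the Gipr line. Clec4f, a receptor particular to Kupffer cells, the resident macrophages of liver, stood at 14.7, 42.6, 25.9, 21.6 and 31.7 FPKM in Glp1r line livers and 49.4, 38.6, 49.6, 48.4 and 45.7 FPKM in Gipr line livers. In fat it stood at 0.325, 0, 0.0235, 0 and 0 FPKM in the Glp1r line and 0, 0, 0, 0 and 0.0113 FPKM in the Gipr line. Liver and fat were separate in both lines, and the liver values of the 2 lines overlapped.

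General macrophage markers were higher in fat, 7 of 7, with 3 (Adgre1, Cd68 and Lyz2) under every scaling. Of 7 markers of lipid-associated macrophages, cells that gather around dying adipocytes, 6 were called for fat under every scaling. Trem2, their receptor for lipid, stood in fat at 7.89, 5.001, 20.5, 28.5 and 42.6 FPKM in the Glp1r line and 25.7, 11.4, 17.1, 33.8 and 30.4 FPKM in the Gipr line. In liver it stood at 0.603, 1.54, 0.924, 1.38 and 2.46 FPKM in the Glp1r line and 0.852, 1.05, 3.67, 1.85 and 1.52 FPKM in the Gipr line, and the tissues did not overlap in either line. Lpl, another gene of the list, is also made by adipocytes. Spp1, the gene of osteopontin, was the exception. In liver it stood at 36, 39.2, 34.4, 29.5 and 76.6 FPKM in the Glp1r line and 26.8, 25.8, 63.9, 39.8 and 23.7 FPKM in the Gipr line, and in fat at 3.16, 1.36, 2.21, 4.73 and 5.53 FPKM in the Glp1r line and 4.75, 3.87, 2.29, 7.17 and 4.28 FPKM in the Gipr line. Spp1 is also made by bile duct cells, whose other 6 markers were too low to test.

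All 7 class II antigen presentation genes were higher in fat (medians -3.58 and -3.15), 6 under every scaling. The count was also 7 without Glp1r line fat libraries 1 and 2, of which the second carried 783 FPKM of B cell markers. Gipr line fat replicate 2, with 187 FPKM of B cell markers, stayed in. The part of B cells in that line was therefore not tested. The cell cycle list had 12 of 16 called for fat, beside 34.5% of all genes, and 9 without Glp1r line fat libraries 1 and 2. Under every scaling 2 held (Top2a and Cdk1), beside 15.2% of all genes.

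Matrix genes were among the clearest marks of fat. Of 25 tested genes 21 were called for fat, 20 under every scaling, and 1, Col18a1, for liver (medians -4.59 and -5.03). Col1a1, a chain of fibrillar collagen, was singled out after its values were seen, and stood in fat at 106, 89.8, 105, 113 and 109.9 FPKM in the Glp1r line and 159.6, 56.7, 192, 114 and 157 FPKM in the Gipr line. In liver it stood at 1.83, 3.07, 2.27, 3.93 and 5.13 FPKM in the Glp1r line and 1.59, 1.51, 3.88, 2.64 and 2.51 FPKM in the Gipr line, far below every fat library. Sparc, a collagen-binding protein of adipocytes and fibroblasts, had the largest difference of the list (-7.08 and -6.76). Fn1, fibronectin, which hepatocytes also secrete into plasma, was not called (2.0 and 0.90). Of the 7 progenitor and fibroblast markers 6 were called for fat, and Dpp4 for liver.

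By FPKM, most mitochondrial energy genes were within 2-fold. Of 25 tested nuclear subunits of oxidative phosphorylation 20 were within 2-fold in both lines beside 30.1% of all genes, none was called for liver, and 2 were called for fat. By the median of ratios 8 were called for liver and 1 for fat. The 2 called by FPKM were Cox8b and Cox7a1, subunit forms of muscle and brown fat (-5.65 and -3.74 for Cox8b, and -1.41 and -1.09 for Cox7a1). Summed skeletal muscle markers ran from 25.2 to 515 FPKM in the Glp1r line fat and from 87.3 to 644 FPKM in the Gipr line fat, against 0.249 to 0.793 and 0.63 to 125 FPKM in liver, and their part in these values was not tested. The list's median was -0.07 and 0.23 by FPKM and 0.86 and 1.2 by the median of ratios, so its sign depends on the scaling. None of 13 mitochondrially encoded subunits was called by FPKM and 7 were within 2-fold, while 10 were called for liver by the median of ratios. Their medians were 0.34 and 0.50 by FPKM, 1.27 and 1.48 by the median of ratios and -0.36 and -0.37 by quantile normalization. All symbols with the mitochondrial prefix mt- together held 12.97 ± 0.813% of summed FPKM in liver and 12.6 ± 2.28% in fat of the Glp1r line (exact permutation p = 0.873). In the Gipr line they held 11.9 ± 1.62% and 10.5 ± 0.427% (exact permutation p = 0.0952, adjusted 0.106). The unnamed models Gm28661, Gm28437 and Gm10925 were among the leading genes of every group. Gm28661 held 2.57% and 2.42% in Glp1r line liver and fat, and 2.09% and 2.12% in the Gipr line. Such models may share reads with near copies. Whether they take reads from the mt- genes was not tested, so the mt- values are uncertain.

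Of the 11 tested thermogenic genes 3 were called for liver and 6 for fat, with 3 and 4 under every scaling, and Ucp1, the uncoupling protein of brown and beige fat, was too low to test. Its values averaged 0.243 and 1.05 FPKM in fat. Of 16 clock genes 7 were within 2-fold and 3 were called each way by FPKM, against 8 for liver and 0 for fat by the median of ratios, and 3 and 0 held under every scaling. The median (0.11 and 0.27) fell below 0 by common sum (-0.15 and -0.01). Of 16 reference genes often used in quantitative PCR, 4 were called for fat (Actb, Hprt, Gusb and Ywhaz, beside 34.5% of all genes) and none for liver by FPKM. Actb and Gusb held under every scaling. Their median changed sign between FPKM (-0.71 in both lines) and the median of ratios (0.17 and 0.23). The heat shock list had 0 of 9 genes called for liver and 1 for fat by FPKM and the interferon list 1 and 4 of 12. None of these held under every scaling, and both medians also changed sign with the scaling. Of 12 iron genes 7 were called for liver and 1 for fat (6 and 0 under every scaling), and of 17 antioxidant genes 6 and 3 (3 and 2), with Hamp, the gene of the iron hormone hepcidin, at 394 and 874 FPKM in liver and 2.41 and 0.151 in fat.

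The tissue difference itself was compared between lines by an interaction term over the 20 libraries. It passed for 699 of 13741 genes (5.09%), with liver minus fat larger in the Gipr line for 192 (1.4%) and smaller for 507 (3.69%), by limma at an adjusted p under 0.05. Leaving out Glp1r line fat replicate 2 raised the count to 2834. With all 20 libraries kept it was 397 with a pseudocount of 0.1 and 3731 with array weights, so its size is uncertain. Only 1 gene of 12395 (0.00807%), the unnamed model Gm43079, was called in opposite directions in the 2 lines. The 10 with the smallest p were Cyp2a22, Gm38287, Fam177a2, Gm1673, Fndc1, Plat, Aif1l, Fez1, Gm39090 and Agtr1a. Cyp2a22, a cytochrome P450, had an interaction of -3.89 (adjusted p = 8.62e-11). Plat, tissue plasminogen activator, had -1.46 and Agtr1a, the angiotensin II receptor, -1.44.

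Apart from the genes with the smallest p, the interaction was looked up only for the genes followed library by library. The other genes described above were not looked up, so their absence here does not show that the lines were alike. Among the genes followed by library, the interaction passed for Lpl (1.51), Plin1 (0.91), Ppara (0.90), Clec4f (0.91), Oxct1 (0.73) and Gipr (-0.72, adjusted p = 0.0388). None of these turned its direction: Lpl, Plin1 and Oxct1 were higher in fat in both lines by a smaller margin in the Gipr line, and Ppara and Clec4f higher in liver by a larger one. Gipr was higher in fat by a larger margin in the Gipr line. Line and deposited table coincide within each tissue, so these differences cannot be told apart from differences between tables.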

How the data were processed

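Polyadenylated RNA of 20 libraries was analysed, sequenced from TruSeq Stranded mRNA libraries on a NovaSeq X per the labels' protocols. The authors deposited FPKM values per gene symbol, made with RSEM per the submitters' processing notes. Its version, and which aligner, build and annotation were used, is not given in the sources used here. FPKM scale each library to its own mapped fragments, so abundant genes of a tissue lower the values of its other genes. The 4 groups come from 4 deposited tables of 15 libraries each and 54343 symbols. Of these symbols, 91.1% were found in the reference names.

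Genes with at least 1 FPKM in 5 of the 10 libraries of a line were tested on log2(FPKM + 1) with limma 3.58.1 in R 4.3.3 (trend fitted), liver minus fat within each line, with Benjamini-Hochberg adjustment over all genes. A difference is on that scale and understates changes of low genes. A call needs an adjusted p under 0.05 and a 2-fold difference in the same direction in both lines. The interaction used all 20 libraries. Values called alike had both 95% intervals within 1 log2 unit. Library measures had exact permutation tests. The script was tested on simulated data. The depth was estimated from the smallest steps of values of genes with 1 transcript (6496 genes of 1500 to 6000 bases), not read from the files. Counting error limits the precision of values below 1 FPKM. A gene near 0 in 1 tissue passes the filter only through the other tissue, which fixes its direction.

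By rule, the genes named are the 15 largest called differences each way (groups apart, at least 5 FPKM, unnamed models left out), of each list up to 4 called members each way and 2 alike, the members of the pairs, Glp1r, Gipr and Gcgr, the 10 highest alike genes and the 10 smallest interaction p-values. Acadl, Apob, Apoe, C3, Col1a1, Cpt2, Cyp7a1, Ehhadh, Elovl6, F13b, Fgf21, Fn1, Gm43079, Hadha, Hc, Klb, Orm1, Pck1, Slc25a20, Tbx15 and Ucp1 fall outside that rule and were chosen after their values were seen. The members and lists were chosen with earlier results of these data known. Alternatives were another pseudocount, other filters, scalings, a replicate block, array weights, a test against 2-fold and leaving out each library. Motif letters were settled after other spellings had been looked at. p-values measure only the spread between these libraries, which may be partly technical. The treated and deleted groups were not used here. Some genes that the rule takes, and the pairs they belong to, are not reported here, and counts over lists include them.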

Additional observations from a re-analysis of the deposited data

Results flagged for a closer look

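In groups of 5 libraries, a value was picked out where its gap to the nearest other library exceeded 0.71 of the group's whole range, on log2(FPKM + 1) for genes and summed markers and on the measured scale for library measures. Of 191 groups examined, 26 did so, 15 of 103 for the genes described by library, 3 of 20 for library measures and 8 of 68 for summed markers. Gene groups whose highest value was under 1 FPKM were left out. Chance picks out about 1 in 20 groups that are independent and chosen without regard to their values. These groups share libraries and genes, and some genes were chosen after their values were seen. The counts can therefore not be held against that rate.

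Most of these values belong to 2 libraries of the Glp1r line fat. Replicate 1 was the highest for genes of hepatocytes: Apob at 1.79 FPKM, Cps1 at 4.998 FPKM and Hnf4a at 1.12 FPKM. Replicate 2 was the lowest for genes of adipocytes. It had Adipoq at 1011 FPKM, Fabp4 at 7863 FPKM, Plin1 at 380.4 FPKM, Cidec at 1156 FPKM, Pparg at 49.0 FPKM and Lpl at 1711 FPKM. It was also lowest for Hk2 at 16.3 FPKM, Oxct1 at 69.5 FPKM, Ppara at 0.863 FPKM and Rarres2 at 268 FPKM.

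The same replicate 2 had the lowest summed adipocyte markers, 12840 FPKM, lipid-associated macrophage markers, 1907 FPKM, and exocrine pancreas markers, 21.7 FPKM. Lpl, also made by adipocytes, gave 1711 FPKM of that macrophage sum, and 4 of the 8 pancreas markers were at 0. Neither sum is thus a reading of macrophages or pancreas. It had the highest summed B cell markers, 783 FPKM, T cell markers, 353 FPKM, and sinusoidal endothelial markers, 85.8 FPKM. It held the most genes at 1 FPKM or more, 13643, and the lowest mitochondrial share, 8.63%. No cause of this pattern was tested.

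Other libraries stood apart for single values. Gipr line liver replicate 3 was highest for Pnpla3, 4.06 FPKM, and Hk2, 2.41 FPKM. Gipr line fat replicate 2 was highest for T cell markers, 123 FPKM, and replicate 4 for sinusoidal endothelial markers, 92.8 FPKM. Glp1r line fat replicate 3 had the highest summed FPKM, 527935.

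The difference of liver minus fat differed between the lines by the interaction test for 16 genes among those looked up. Only the genes with the smallest interaction p-values and the genes described by library were looked up. The former were picked by this same test, so the count of 16 is a description and no share of the named genes. Over all 13741 genes tested, 699 (5.09%) passed. Liver minus fat was smaller in the Gipr line, on the log2 scale, for Cyp2a22 (-3.89), Fam177a2 (-3.59), Gm38287 (-2.87), Fndc1 (-1.68), Plat (-1.46), Agtr1a (-1.44), Fez1 (-1.13), Aif1l (-1.02), Gm39090 (-0.95) and Gipr (-0.72). It was larger in the Gipr line for Lpl (1.51), Gm1673 (1.41), Plin1 (0.91), Clec4f (0.91), Ppara (0.90) and Oxct1 (0.73). The Gm models and Fam177a2 may share reads with near copies, so their values are uncertain.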

How the results depend on the processing

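Calls for 333 named genes in each line gave 655 results and 15661 values under the alternatives, of which 15379 kept their direction and side of the threshold, 196 lost the call, 86 gained one and 0 changed direction. The count of genes called for fat in both lines, 4271 (1348 for liver), became 6525 by common sum, 2774 with a filter at 5 FPKM, 2228 by quantile normalization and 1987 by the median of ratios, which called 2364 for liver. These totals apply the filter anew to the rescaled values, where the totals by scaling given with the results keep to the 12395 genes tested by FPKM. In the Glp1r line the genes higher in fat were 7138 by common sum, 3117 with the 5 FPKM filter, 2485 by quantile normalization and 2252 by the median of ratios, which gave 2582 for liver. In the Gipr line they were 7717 by common sum, 2789 by quantile normalization and 2443 by the median of ratios, with 2263 and 2733 for liver under the last 2. Genes alike in both tissues were 17510 without a filter, 2452 with the 5 FPKM filter and 5752 by quantile normalization. Changes of filter change how many genes are tested, and the cause of the others was not tested.

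The number of genes whose tissue difference differed between lines, 699, was the least stable of these counts. It was 397 with a pseudocount of 0.1, 420 with the 5 FPKM filter, 3731 with array weights and 534 to 2834 with 1 library left out, the highest without Glp1r line fat replicate 2. Without that library and replicate 1, an alternative chosen after seeing the data, it was 2688. Leaving out 1 library gave 1332 to 1358 genes for liver and 4031 to 4370 for fat in both lines, and 3545 to 4234 alike. Within the lines the ranges were 1484 to 1553 and 4394 to 4899 (Glp1r) and 1440.0 to 1486 and 5010.0 to 5258 (Gipr). Same-numbered liver and fat libraries had correlated deviations of 0.061 to 0.197 in the Glp1r line, above 0.1 in 3 of 5 pairs, where 3 of 5 livers and 4 of 5 fat libraries correlated best with their own number. In the Gipr line they were -0.272 to 0.120, above 0 in 1 of 5 pairs. Pairing was taken to need every pair above 0.1, so it was not assumed, and shared animals in the Glp1r line cannot be told from these values. With a replicate block 1348 and 4270 of the calls were made again, the interaction count was 423, and no named gene changed its call.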

Other observations

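A further set of genes was close to absent in 1 of the tissues. At least 10 FPKM in all 10 libraries of fat and at most 0.1 FPKM in all 10 livers was met by 24 genes, and the reverse by 9 genes, against 4497 and 3466 genes that reached 10 FPKM in all libraries of fat and of liver. These genes were picked out by their values and carry no test. Among those of fat were several receptors, some of them better known from other organs. Oxtr, the oxytocin receptor, stood at 26.2 to 108 FPKM in fat and at no more than 0.0219 FPKM in liver. Tshr, the thyrotropin receptor, stood at 25.8 to 54.8 FPKM in fat, and Hcar1, the lactate receptor of adipocytes, at 12.4 to 25.4 FPKM. Ret, a receptor tyrosine kinase of the nervous system, stood at 16.4 to 27.8 FPKM.

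Some enzymes of this set are known from brain or stomach. Tph2, the tryptophan hydroxylase of serotonin neurons, stood at 19.0 to 61.9 FPKM in every fat library and at no more than 0.0078 FPKM in liver. Lipf, gastric lipase, stood at 15.3 to 42.1 FPKM. Bcat1, the cytosolic branched-chain aminotransferase, stood at 10.9 to 24.4 FPKM in fat, beside the mitochondrial Bcat2 that was also higher there. On the liver side Inhbe, which encodes a chain of activin E, stood at 18.2 to 37.3 FPKM and Acot3, a peroxisomal thioesterase, at 11.9 to 57.4 FPKM. The 9 liver genes also held Gstm3, Smlr1 and Cyp2c38. Without fat replicate 1 of the Glp1r line, an alternative chosen after seeing the data, 137 genes of liver and 24 of fat qualified. With a median of at most 0.1 FPKM in the other tissue in place of all libraries, 236 and 68 did.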
